A study of Mus musculus with 44 samples.

Results

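The comparison described here sets mouse embryonic stem (ES) cells of HexERTVP2 clone 1, unrecombined and grown without 4-hydroxytamoxifen (4-OHT), against wild-type CGR8.8 cells. Its members were chosen by their labels and comprised 9 of the 44 arrays of the series, 5 of clone 1 and 4 of wild type. Clone 1 carries the HexERTVP2 construct at the Rosa26 locus, and the wild-type cells carry no targeted construct, per the labels. Lines set beside clone 1 were clone 2 (the same construct, unrecombined, 3 arrays without and 3 with 4-OHT), clone 1 with 4-OHT (3 arrays) and cells with unrecombined Hex at Rosa26 (4 arrays, of which 3 were fitted). Recombined groups, used in the fit and in some values below, were clone 1 (4 arrays without and 4 with 4-OHT), clone 2 (3 and 3) and Hex (4 arrays). All of these lines share the wild type's CGR8 background, a feeder-independent ES cell line. Each targeted line is a single clone, so the targeting and the history of that clone cannot be told apart. Nothing in the labels tells whether replicate arrays stem from different cultures, and p-values then measure only the spread between these arrays, which may be technical.

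Hex, encoded by Hhex, is a homeodomain protein that mainly represses its target genes and marks anterior endoderm and early blood and endothelial cells in the embryo. From its name, HexERTVP2 is a fusion of Hex with a 4-OHT-responsive part of the oestrogen receptor and with a viral activation domain. Rosa26 is a locus transcribed in most mouse cells and widely used as a landing site for constructs; its own gene, Gt(ROSA)26Sor, makes noncoding RNAs. Recombination usually switches an inserted gene on in such cells, although the labels do not say so. ES cells are the culture form of the early epiblast, held by LIF signalling and by a network around Pou5f1, Sox2 and Nanog.

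Expression was read on single-channel Affymetrix MG-U74Av2 arrays as 1 intensity per probe set, and values below are log2 intensities or their differences (clone 1 minus wild type). An array has no read depth, so precision is limited by how many arrays there are. The median log2 intensity over the 39 arrays fitted was 6.76. The 9 arrays correlated with the other assigned arrays at a mean of 0.986 to 0.989. Array 2 of unrecombined Hex stood apart at 0.869, against 0.978 to 0.990 for the other 39 arrays, and was left out of the fit although it belongs to neither group. The β-actin 3′/5′ log2 ratio, a sign of RNA quality, averaged 1.01 ± 0.40 on clone 1 arrays (SD, n = 5) and 1.20 ± 0.31 on wild-type arrays (SD, n = 4). Clone 1 arrays 2 and 5 were lowest, at 0.588 and 0.568, against 0.846 for the lowest wild-type array. Both groups had the levels of ES cells: Pou5f1 averaged 11.48 in clone 1 and 11.48 in wild type, Sox2 11.07 and 11.20, Nanog 11.20 and 11.52, Utf1 11.03 and 10.95, and Dppa5a 12.06 and 12.14, clone 1 first in each pair. Esrrb, another ES cell marker, read low in both, at 6.16 in clone 1 and 6.06 in wild type.

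Clone 1 differed from wild type in a small set of genes, most of them lower. Of 12422 probe sets tested, 142 (1.14%) passed the threshold of an adjusted p of 0.05, 35 higher (0.282%) and 107 lower (0.861%). The 35 rises covered 29 named genes and the 107 falls 96. Changes were small: the median rise was 0.501 and the median fall −0.409, and Acta2 alone passed a log2 difference of 1 in either direction. The arrays of the groups did not overlap in 135 of the 142 (1.09% of all), against 544 of all 12422 probe sets (4.38%). An unadjusted p under 0.05 was reached by 929 probe sets, and the median difference over all probe sets was 0.017. The count of calls depended on the arrays used. It was 37 (15 higher, 22 lower) with array 2 of unrecombined Hex in the fit, and 69 (30 higher, 39 lower) without clone 1 arrays 2 and 5. Adding the β-actin ratio as covariate gave 288 (80 higher, 208 lower), among them all 142. Leaving out clone 1 array 2 gave 89, clone 1 array 5 gave 90, and wild-type arrays 2, 3 and 4 gave 90, 93 and 84.

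**Figure D1:**
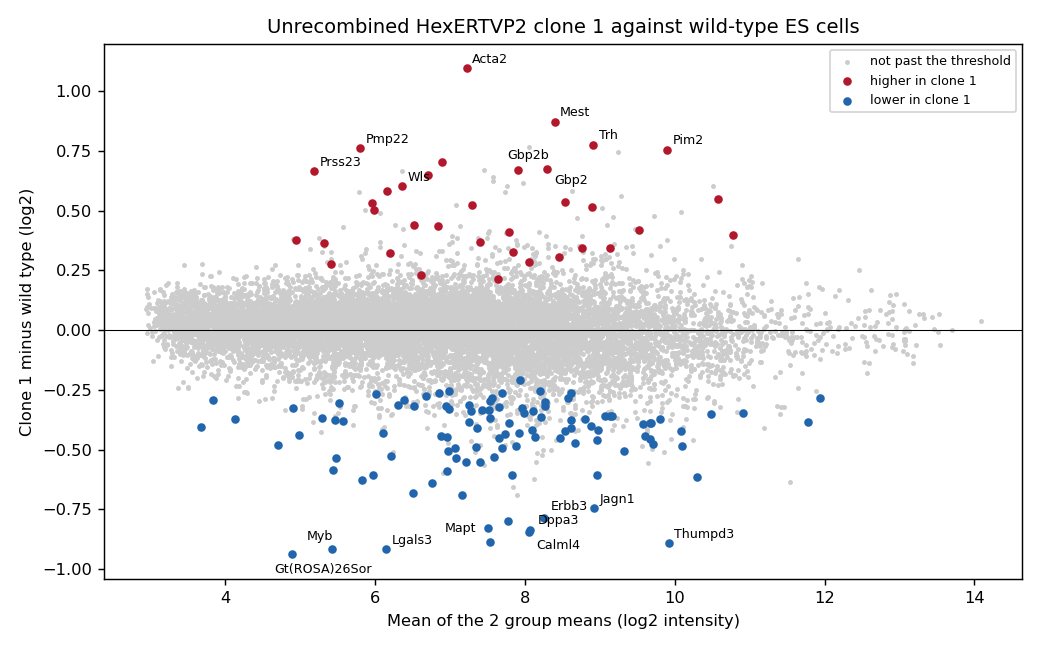
Each point is 1 of 12422 probe sets, placed by the mean of the clone 1 and wild-type group means (x axis, log2 intensity) and by clone 1 minus wild type (y axis, log2). Red points (35) were higher and blue points (107) lower at an adjusted p under 0.05, grey points did not pass, and the labels mark the largest rises and falls.

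Neither the endogenous Hex gene nor Nodal nor Tle4, all named here whatever their values, passed the test between clone 1 and wild type. Hhex read 6.17, 6.14, 6.18, 6.11 and 6.17 on clone 1 arrays and 6.11, 6.23, 6.15 and 6.08 on wild-type arrays. Those values overlap and lie under the array median, and the difference was 0.01 ± 0.07 (SE, adjusted p = 0.998 by limma). Whether the Hhex probe set detects the fusion transcript is not stated in the sources used here. In recombined cells without 4-OHT it averaged 6.29 in clone 1 and 6.18 in clone 2, and in recombined Hex cells 6.25. Expression of the construct in clone 1 was thus not tested by this probe set. Nodal, the ligand of the TGF-β family that patterns the early embryo, averaged 7.88 ± 0.14 in clone 1 and 7.88 ± 0.13 in wild type (adjusted p = 0.999). Tle4, a Groucho corepressor that homeodomain proteins recruit, averaged 8.64 ± 0.24 in clone 1 and 8.84 ± 0.22 in wild type, a difference of −0.20 ± 0.22 (SE, adjusted p = 0.987).

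The Rosa26 gene itself had the largest fall. Gt(ROSA)26Sor read 4.37, 4.29, 4.53, 4.81 and 4.11 on clone 1 arrays, and 5.54, 5.44, 5.14 and 5.32 on wild-type arrays. Every clone 1 array lay below every wild-type array. The fall was −0.94 ± 0.12 (SE, adjusted p = 1.2e-05), which is 1.92-fold lower in clone 1. The probe set is dim in both groups, under the array median of 6.76.

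Genes beside Rosa26 on chromosome 6 fell as well. This was noticed after the values were seen, and the window of 15 measured genes on each side is a description with no test of its own. Thumpd3, the measured gene just before Gt(ROSA)26Sor and a subunit of a tRNA guanine methyltransferase, read 9.72, 9.14, 9.67, 9.56 and 9.28 on clone 1 arrays and 10.36, 10.46, 10.28 and 10.36 on wild-type arrays. Its groups were well apart, with a fall of −0.89 ± 0.12 (SE, adjusted p = 1.91e-05), or 1.86-fold. Jagn1, the fifth measured gene after Gt(ROSA)26Sor and an endoplasmic reticulum protein needed by neutrophils, read 8.52, 8.71, 8.45, 8.34 and 8.73 on clone 1 arrays and 9.30, 9.32, 9.39 and 9.17 on wild-type arrays. That fall was −0.75 ± 0.13 (adjusted p = 0.00118), again with no overlap. Brk1, the seventh and a small subunit of the WAVE complex that drives actin branching, read 9.78, 10.10, 9.94, 9.996 and 10.14 on clone 1 arrays and 10.43, 10.56, 10.81 and 10.64 on wild-type arrays. The fall of Brk1 was −0.62 ± 0.13 (adjusted p = 0.00629). Tamm41, the fourteenth and a mitochondrial enzyme of cardiolipin synthesis, averaged 6.82 ± 0.10 in clone 1 and 7.31 ± 0.20 in wild type (adjusted p = 0.017). The calls of Jagn1, Brk1 and Tamm41 were lost with array 2 of unrecombined Hex in the fit, and those of Gt(ROSA)26Sor and Thumpd3 were kept. Tamm41 also lost its call without clone 1 arrays 2 or 5 or wild-type arrays 2 or 4, without clone 1 arrays 2 and 5 together, and with the replicate number as a block.

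Of the 31 genes in this window, Gt(ROSA)26Sor and the 4 just named fell and 0 rose, beside 0.861% lower over all probe sets. The genes between them were mixed. Sec13, a component of COPII coats and nuclear pores, averaged 9.45 ± 0.10 in clone 1 and 9.95 ± 0.17 in wild type, and Emc3, a membrane protein insertase subunit, 7.36 ± 0.15 and 7.80 ± 0.18, neither past the threshold. Mtmr14, a phosphoinositide phosphatase next to Gt(ROSA)26Sor, averaged 7.91 ± 0.18 in clone 1 and 8.26 ± 0.33 in wild type, and its arrays overlapped. Ogg1, a DNA repair glycosylase that lies between Mtmr14 and Jagn1, averaged 7.08 ± 0.01 in clone 1 and 7.08 ± 0.10 in wild type. Arpc4, an Arp2/3 subunit beside it, averaged 9.59 ± 0.27 in clone 1 and 9.76 ± 0.40 in wild type. Second probe sets of Emc3, Tamm41 and Mtmr14 did not pass the threshold. That of Emc3 differed by 0.16 at a level of 4.89, in the other direction to its first. Those of Tamm41 and Mtmr14 differed by −0.10 and −0.60, in the same direction as their first.

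The other targeted lines had low values at the same genes. In Thumpd3, Jagn1, Emc3, Brk1, Sec13 and Tamm41 all 35 targeted arrays of the fit, of both clones of HexERTVP2 and of Hex in every state, lay below the lowest of the 4 wild-type arrays. Over the whole array 22 probe sets (0.177%) had that pattern and 0 the opposite one. Of the 22, 9 were on chromosome 6, and 6 of these within 15 measured genes of Gt(ROSA)26Sor. The lines share the wild-type arrays, so a low or high wild-type value would move all of them. Against wild type, Thumpd3 differed by −0.89 in clone 1, −1.23 in clone 2 and −0.89 in unrecombined Hex, and Jagn1 by −0.75, −1.25 and −0.94 in the same order. Gt(ROSA)26Sor differed by −0.94 in clone 1 and −1.08 in clone 2 but by −0.21 in unrecombined Hex. Recombined Hex was low as well, at a mean of 4.13 against 5.36 in wild type. Of the 35 targeted arrays, 33 lay below the lowest wild-type array in Gt(ROSA)26Sor. Tested directly, clone 1 was lower than unrecombined Hex in Gt(ROSA)26Sor by −0.73 (adjusted p = 0.00024), while Thumpd3 differed by −0.00063 ± 0.13 between them (SE).

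**Figure D2:**
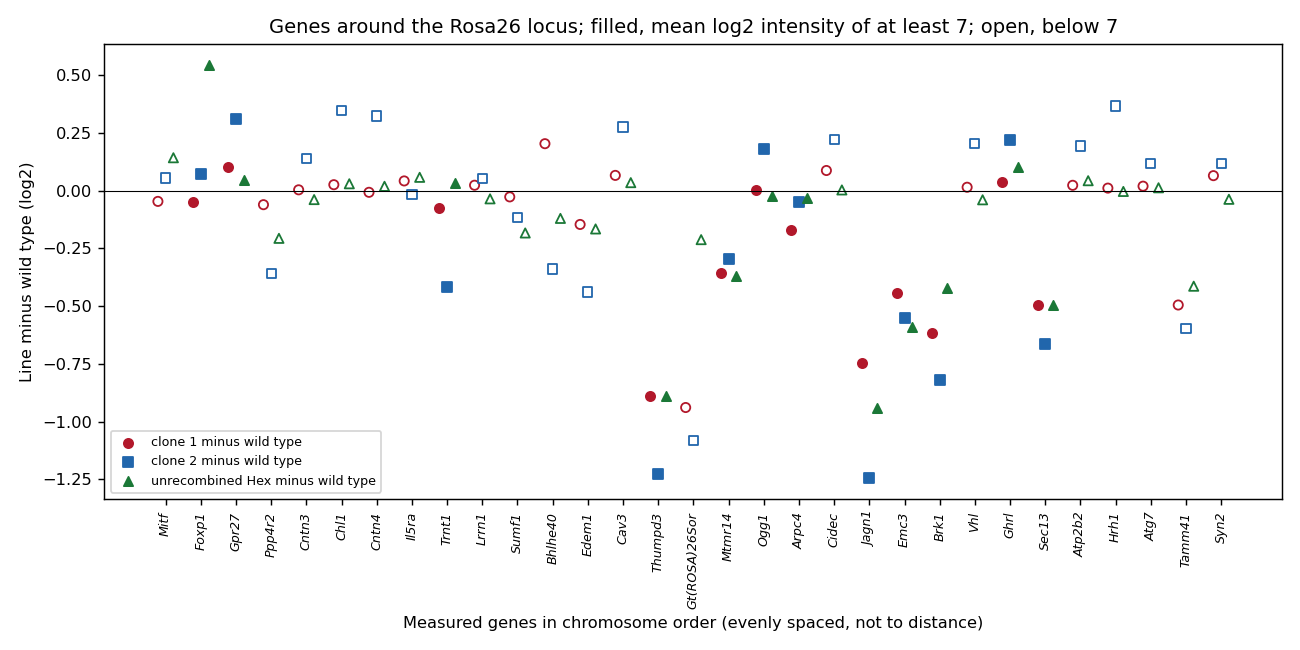
Difference from wild type (y axis, log2) of Gt(ROSA)26Sor and the 15 measured genes on each side, in chromosome order and evenly spaced (x axis). Circles are clone 1, squares clone 2 and triangles unrecombined Hex, filled where the mean log2 intensity is at least 7; Thumpd3, Jagn1, Emc3, Brk1, Sec13 and Tamm41 are below 0 in all of these lines, with Ogg1 and Vhl between them near or above 0.

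The sequences before the starts of Thumpd3, Jagn1 and Brk1 are given because these genes fell together around the insertion site. They are the 250 bases ahead of each start in RefSeq (build GRCm38.p6, plus strand, 5′ to 3′) at chr6:113046052-113046301, chr6:113442267-113442516 and chr6:113604522-113604771. Capitals mark CpG dinucleotides, and Jagn1 has another window that overlaps the one shown.
Thumpd3: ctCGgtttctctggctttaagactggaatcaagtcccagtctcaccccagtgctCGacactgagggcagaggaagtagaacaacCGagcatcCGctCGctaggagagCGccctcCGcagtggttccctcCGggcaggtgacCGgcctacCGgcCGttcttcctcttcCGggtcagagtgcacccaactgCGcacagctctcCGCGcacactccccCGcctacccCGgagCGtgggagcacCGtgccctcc
Jagn1: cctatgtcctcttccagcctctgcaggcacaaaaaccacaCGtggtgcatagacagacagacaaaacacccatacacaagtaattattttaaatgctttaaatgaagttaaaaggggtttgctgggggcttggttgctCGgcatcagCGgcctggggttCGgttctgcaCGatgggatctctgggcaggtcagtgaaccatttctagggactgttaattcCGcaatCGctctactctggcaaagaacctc
Brk1: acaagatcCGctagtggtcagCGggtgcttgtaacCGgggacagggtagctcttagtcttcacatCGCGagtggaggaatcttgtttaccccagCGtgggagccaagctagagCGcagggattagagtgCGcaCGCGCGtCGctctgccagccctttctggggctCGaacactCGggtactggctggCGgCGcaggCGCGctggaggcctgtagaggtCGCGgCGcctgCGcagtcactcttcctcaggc
The windows of Thumpd3 and Brk1 hold 19 and 22 CpGs and that of Jagn1 holds 7, against a median of 6 over 32851 mouse windows of the same length. The letters GGGCGG, which Sp1 binds, were found on neither strand of any of the 3 and occur in 32.7% of all windows. Likewise CCAAT, which NF-Y binds, was found in none of them and occurs in 33.8% of all windows. The promoter element TATAAA was found in none of them and occurs in 12.4%. The letters ATTAA, the core that Hex and many other homeodomain proteins bind, occur once in the window of Jagn1 on 1 of the strands and not in the others, and in 24.9% of all windows.

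Among genes higher in clone 1, Acta2 moved most. Acta2, smooth-muscle α-actin, read 8.02, 7.76, 7.87, 7.75 and 7.46 on clone 1 arrays and 6.85, 6.58, 6.65 and 6.61 on wild-type arrays. The lowest clone 1 array was above the highest wild-type array, and the rise was 1.10 ± 0.13 (SE, adjusted p = 3.47e-06), or 2.14-fold. Acta2 is also a marker of fibroblasts, so the other 20 measured fibroblast genes are set beside it: by their brightest probe sets none of them passed, 15 of all 21 were above 0 and the median difference was 0.08. Dimmer second probe sets of both type I collagen genes did pass. That of Col1a1 averaged 6.45 ± 0.24 in clone 1 and 5.86 ± 0.18 in wild type, with arrays that overlapped, a rise of 0.58 (adjusted p = 0.0222), and that of Col1a2 rose by 0.23 (adjusted p = 0.0424). Both of these calls were lost with array 2 of unrecombined Hex in the fit, without clone 1 arrays 2 and 5 together, and without clone 1 arrays 1, 3 or 5 or wild-type arrays 2 or 4. That of Col1a1 was also lost without wild-type array 1, and that of Col1a2 without clone 1 array 2 or wild-type array 3. The summed linear intensity of the fibroblast list ran from 2670 to 2805 on clone 1 arrays and from 2343 to 2436 on wild-type arrays. Acta2 is itself in this sum, so part of the gap is Acta2. Any part of fibroblasts in the rise of Acta2 was not tested. By the brightest probe sets of the list's defining members, Col1a1 averaged 8.27 in clone 1 and 7.93 in wild type, Col1a2 8.81 and 8.74, Col3a1 6.11 and 5.996, and Postn 3.60 and 3.44, clone 1 first. Of 33 measured genes of the actin cytoskeleton and smooth muscle, Acta2 rose and Lgals3 and Myl9 fell. The shares over all probe sets were 0.282% higher and 0.861% lower. Myl9, the regulatory light chain of smooth-muscle myosin, averaged 6.67 ± 0.11 in clone 1 and 7.26 ± 0.11 in wild type (adjusted p = 2.01e-05), the opposite direction to Acta2.

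Prss23, a secreted serine protease known as an oestrogen-responsive gene, read 5.68, 5.44, 5.67, 5.45 and 5.34 on clone 1 arrays and 5.0, 4.94, 4.68 and 4.78 on wild-type arrays. The groups did not overlap, and the rise was 0.67 ± 0.09 (adjusted p = 1.71e-05), at a level under the array median. Of 18 measured oestrogen-response genes Prss23 and Cited2 rose and Myb fell, beside 0.282% higher and 0.861% lower over all probe sets. Cited2, a CBP/p300-binding coactivator, averaged 9.31 ± 0.17 in clone 1 and 8.96 ± 0.16 in wild type, its arrays overlapped, and its call was lost without any 1 of clone 1 arrays 1 to 4 or of wild-type arrays 2 to 4. Myb, a transcription factor of blood progenitors, averaged 4.97 ± 0.21 in clone 1 and 5.89 ± 0.15 in wild type, a fall of −0.92 ± 0.14 (adjusted p = 0.000158). A second Myb probe set, dimmer at 4.11 in each group, differed by −0.0041.

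Other rises were of genes with unrelated roles. Pmp22, a membrane protein of myelin and of growth-arrested cells, averaged 6.18 ± 0.15 in clone 1 and 5.42 ± 0.08 in wild type (difference 0.76, adjusted p = 0.000101); its second probe set, at 4.56 in both groups, differed by −0.0022. Wls, the carrier that brings Wnt proteins to the cell surface, averaged 6.66 ± 0.18 in clone 1 and 6.06 ± 0.12 in wild type (0.60, adjusted p = 0.000183). Car2, a carbonic anhydrase, was high in both, at 10.85 ± 0.04 in clone 1 and 10.30 ± 0.11 in wild type (0.55, adjusted p = 0.00629). Trh, the precursor of thyrotropin-releasing hormone, ran from 8.84 to 9.72 in clone 1 and from 8.27 to 8.77 in wild type, a narrow gap, and its rise of 0.78 was lost without clone 1 arrays 2 or 5 or wild-type arrays 1 or 4. Nkx6-2, a neural homeobox gene, averaged 6.73 ± 0.16 in clone 1 and 6.29 ± 0.19 in wild type, and Ssbp2, a cofactor of LIM-domain complexes, 7.06 ± 0.16 and 6.62 ± 0.09. The call of Nkx6-2 was lost without clone 1 arrays 1, 2 or 5 or wild-type arrays 1 or 4, and that of Ssbp2 without clone 1 arrays 1, 2 or 3 or wild-type arrays 1, 2 or 3. With array 2 of unrecombined Hex in the fit the calls of Pmp22, Wls, Car2, Nkx6-2, Ssbp2, Cited2 and Myb were lost, and those of Acta2, Prss23, Trh and Myl9 were kept. Without clone 1 arrays 2 and 5 together, Trh, Car2 and Nkx6-2 lost theirs.

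**Figure D3:**
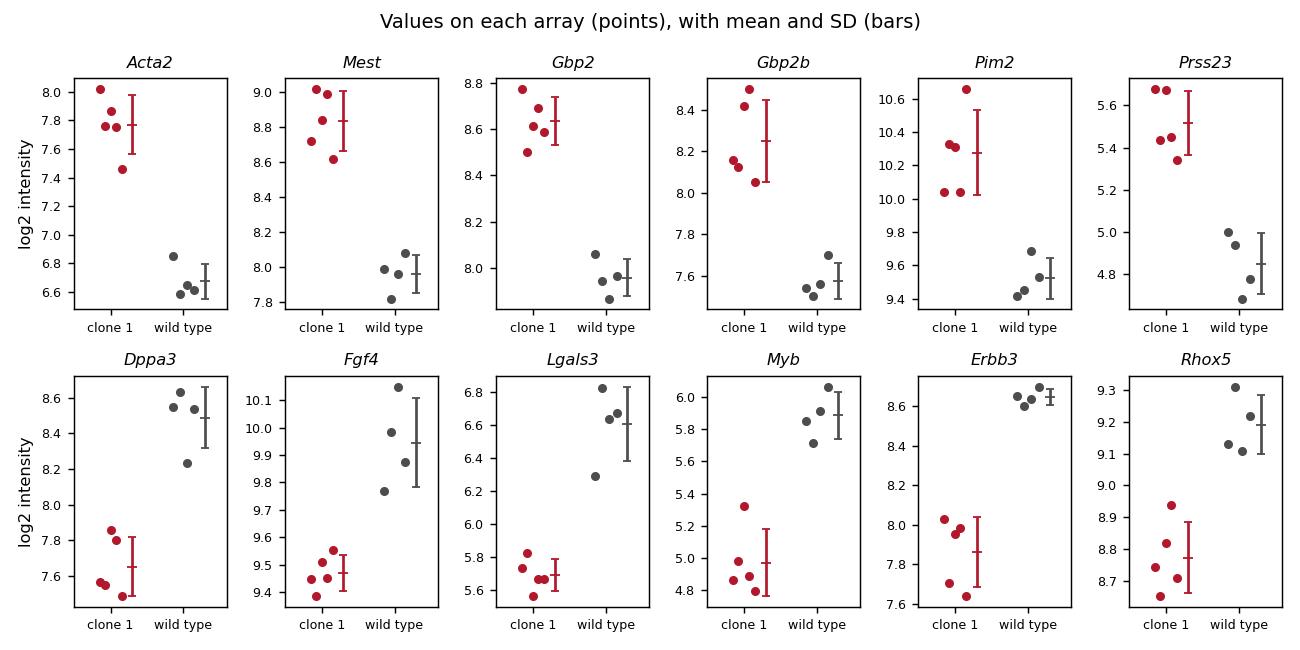
Log2 intensity on each array for 12 genes, clone 1 (red, 5 arrays) left of wild type (grey, 4 arrays), with the mean and SD of each group as bars; each panel has its own y axis, which does not start at 0. In each panel the clone 1 points and the wild-type points do not overlap: Acta2, Mest, Gbp2, Gbp2b, Pim2 and Prss23 are above wild type and Dppa3, Fgf4, Lgals3, Myb, Erbb3 and Rhox5 below it.

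Imprinted genes, which are expressed from only the maternal or the paternal copy and whose control regions can lose or gain methylation in ES cell culture, moved upward where they moved. Of 31 measured, Mest, Magel2 and Dlk1 rose, 0 fell, 27 were above 0 and the median difference was 0.06. The median over all probe sets was 0.017, and 0.282% of them were called higher. Mest, a paternally expressed hydrolase gene, read 8.72, 9.02, 8.84, 8.98 and 8.61 on clone 1 arrays and 7.99, 7.82, 7.96 and 8.08 on wild-type arrays. Each clone 1 array was higher, with a rise of 0.87 ± 0.15 (SE, adjusted p = 0.000793), or 1.83-fold. Magel2, a paternally expressed regulator of protein sorting from the Prader-Willi region, averaged 6.24 ± 0.15 in clone 1 and 5.74 ± 0.08 in wild type (0.50, adjusted p = 0.000158). Dlk1, a paternally expressed Notch-related ligand, averaged 8.19 ± 0.09 in clone 1 and 7.90 ± 0.06 in wild type (0.29, adjusted p = 0.00491). Cdkn1c, the maternally expressed cyclin-dependent kinase inhibitor, averaged 9.61 ± 0.28 in clone 1 and 8.86 ± 0.18 in wild type without passing (adjusted p = 0.0623), and Igf2 averaged 9.82 in clone 1 and 9.85 in wild type. The calls of Mest and Dlk1 were lost with array 2 of unrecombined Hex in the fit, and that of Magel2 was kept. Dlk1 also lost its call without clone 1 arrays 2 and 5.

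A pair of guanylate-binding genes, which interferon induces, were higher in clone 1. Of 31 measured genes of the interferon response and antigen presentation, Gbp2, Gbp2b and H2-K1 rose, 0 fell and the median difference was 0.06. Over all probe sets 0.282% were called higher and 0.861% lower, with a median of 0.017. Gbp2, a GTPase that attacks the vacuoles of intracellular pathogens, read 8.77, 8.50, 8.61, 8.69 and 8.59 on clone 1 arrays and 8.06, 7.94, 7.87 and 7.96 on wild-type arrays. Gbp2b read 8.16, 8.12, 8.42, 8.50 and 8.05 on clone 1 arrays and 7.54, 7.50, 7.56 and 7.70 on wild-type arrays. Both were higher on every clone 1 array, by 0.67 ± 0.08 (adjusted p = 3.47e-06) for Gbp2 and 0.67 ± 0.09 (adjusted p = 4.14e-05) for Gbp2b. These are closely related genes, and whether their probe sets share signal was not tested. H2-K1, a class I histocompatibility heavy chain, averaged 8.93 ± 0.12 in clone 1 and 8.59 ± 0.07 in wild type (0.35, adjusted p = 0.00513), and its 2 other probe sets differed by 0.20 and 0.09 without passing. Gbp3, another guanylate-binding gene of the list, averaged 8.07 ± 0.28 in clone 1 and 7.71 ± 0.22 in wild type, with overlapping arrays, and did not pass (0.36, adjusted p = 0.346). Classical interferon targets did not pass: Ifit1 averaged 4.60 in clone 1 and 4.49 in wild type, Isg15 7.82 and 7.48, and Irf1 8.44 and 8.25, clone 1 first. The calls of Gbp2, Gbp2b and H2-K1 held in every alternative that was run, where the list had 3 to 6 rises and 0 falls.

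Genes of naive pluripotency, the state of ES cells held by LIF, were lower where they moved, apart from Gbx2. Of 19 measured, Dppa3, Fbxo15, Tfcp2l1 and Nr5a2 fell and Gbx2 rose, with a median difference of −0.20. The median over all probe sets was 0.017, with 0.861% of them called lower and 0.282% higher. Dppa3 (Stella), which protects the maternal genome of the zygote from demethylation, read 7.56, 7.55, 7.86, 7.80 and 7.49 on clone 1 arrays and 8.55, 8.63, 8.24 and 8.54 on wild-type arrays. The groups were apart by more than their spread, with a fall of −0.84 ± 0.11 (SE, adjusted p = 2.01e-05), or 1.79-fold. Tfcp2l1, a transcription factor downstream of LIF, averaged 8.89 ± 0.10 in clone 1 and 9.25 ± 0.09 in wild type (adjusted p = 0.00573), and a dimmer probe set of it differed by 0.03. Fbxo15, an F-box gene active in ES cells, averaged 9.49 ± 0.11 in clone 1 and 9.88 ± 0.06 in wild type (adjusted p = 0.0348), and its call was lost without any single array other than clone 1 arrays 3 and 4. Gbx2, a homeobox gene that LIF signalling induces, ran from 8.81 to 9.60 in clone 1 and from 8.58 to 8.74 in wild type, a rise of 0.52 ± 0.12 (adjusted p = 0.0231). Its call was lost without clone 1 arrays 1, 3 or 4 or wild-type arrays 1, 2 or 3.

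Nanog, Klf4 and Zfp42 averaged 11.20, 9.57 and 10.67 in clone 1 and 11.52, 9.81 and 11.01 in wild type, lower by −0.32, −0.25 and −0.34 without passing. The naive list had 1 fall (Dppa3) and 0 rises with array 2 of unrecombined Hex in the fit, and 1 fall and 1 rise without clone 1 arrays 2 and 5. Of 12 measured genes of core ES cell identity, Fgf4 and Dppa4 fell, beside 0.861% of all probe sets. Fgf4, the growth factor that prepares ES cells for differentiation, read 9.45, 9.38, 9.51, 9.45 and 9.55 on clone 1 arrays and 9.77, 9.99, 10.15 and 9.87 on wild-type arrays (−0.48 ± 0.09, adjusted p = 0.00231). Dppa4, a chromatin-bound SAP-domain protein, averaged 10.31 ± 0.12 in clone 1 and 10.67 ± 0.01 in wild type (−0.35, adjusted p = 0.0144), and its call was lost without clone 1 array 5. The calls of Fgf4 and Dppa4 were lost with array 2 of unrecombined Hex in the fit, and that of Dppa4 also without clone 1 arrays 2 and 5. Pou5f1 and Sox2 differed by −0.01 and −0.13, neither past the threshold.

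Of 17 measured genes tied to DNA methylation and the germ line, many of which are silenced by promoter methylation in body tissues, Dppa3, Rhox6 and Rhox5 fell and Rpl39l rose. Over all probe sets 0.861% fell and 0.282% rose. Rhox5 and Rhox6, homeobox genes of an X-linked reproductive cluster, averaged 8.77 ± 0.11 and 6.81 ± 0.11 in clone 1, against 9.19 ± 0.09 and 7.35 ± 0.18 in wild type. Their falls were −0.42 (adjusted p = 0.00491) and −0.54 (adjusted p = 0.00115). Rpl39l, a retrocopy of a ribosomal protein gene used in male germ cells, averaged 7.55 ± 0.09 in clone 1 and 7.03 ± 0.11 in wild type (0.52, adjusted p = 0.00177). The calls of Rhox5 and Rhox6 were lost with array 2 of unrecombined Hex in the fit, and that of Rhox5 also without clone 1 arrays 2 and 5.

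Signalling genes showed scattered changes, to be set beside 0.861% of all probe sets called lower and 0.282% higher. In the LIF and STAT3 list (15 measured) Pim1 rose and Tfcp2l1 fell. Pim1, a STAT3-induced kinase, averaged 9.73 ± 0.13 in clone 1 and 9.31 ± 0.08 in wild type (0.42, adjusted p = 0.00435). The related kinase Pim2 read 10.04, 10.33, 10.31, 10.04 and 10.66 on clone 1 arrays and 9.41, 9.45, 9.69 and 9.53 on wild-type arrays. Its rise of 0.76 ± 0.17 (adjusted p = 0.0175) also appeared in a second probe set (0.37, adjusted p = 0.00962), but was lost without clone 1 array 5 or without wild-type arrays 1, 2 or 4. In the FGF and ERK list (24 measured) Fgf4, Egr1 and Fgfr2 fell and 0 rose. Egr1, an immediate early gene induced by ERK, averaged 8.25 ± 0.11 in clone 1 and 8.70 ± 0.21 in wild type (adjusted p = 0.00842), with 0.02 in a dimmer probe set, and its call was lost without wild-type arrays 1 or 4. Fgfr2, a receptor of FGFs, averaged 7.70 ± 0.05 in clone 1 and 8.13 ± 0.06 in wild type (adjusted p = 1.71e-05), with a second probe set also past the threshold at −0.29 and another at −0.05. Without clone 1 arrays 2 and 5 together Pim1, Pim2 and Egr1 lost their calls, and Pim2 also lost it with array 2 of unrecombined Hex in the fit.

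In the Nodal, activin and TGF-β list (27 measured) Fst rose and Inhbb fell. Fst, which binds and blocks activin, averaged 6.37 ± 0.20 in clone 1 and 6.04 ± 0.06 in wild type, and Inhbb, an activin subunit, 4.75 ± 0.09 and 5.07 ± 0.15. Both calls were lost with array 2 of unrecombined Hex in the fit. Among single arrays, Fst lost its call without clone 1 arrays 1 or 5 or any 1 wild-type array, and Inhbb without clone 1 array 5 or wild-type arrays 2, 3 or 4. Lefty1, a Nodal antagonist and target, averaged 9.57 ± 0.42 in clone 1 and 9.01 ± 0.30 in wild type and did not pass. In the Wnt list (38 measured) Lrp6, a Wnt co-receptor, fell (8.07 ± 0.09 in clone 1, 8.33 ± 0.12 in wild type, adjusted p = 0.0419), a call lost without clone 1 arrays 2, 3, 4 or 5 or wild-type arrays 1, 2 or 4. None of 20 BMP and Id genes and none of 4 Groucho/TLE genes passed; Id1 and Id3, targets of BMP signalling, averaged 9.32 and 8.48 in clone 1 and 8.87 and 8.09 in wild type.

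Among the other large falls, Lgals3, the β-galactoside-binding galectin-3, read 5.74, 5.82, 5.56, 5.67 and 5.67 on clone 1 arrays and 6.29, 6.83, 6.64 and 6.68 on wild-type arrays. That was −0.92 ± 0.14 (SE, adjusted p = 0.00018) with no overlap and a call kept in all 19 alternatives, at group means under the array median. Erbb3, a receptor of neuregulins, read 8.03, 7.70, 7.96, 7.99 and 7.64 on clone 1 arrays and 8.65, 8.60, 8.64 and 8.70 on wild-type arrays, a fall of −0.78 ± 0.11 (adjusted p = 7.6e-05). A dimmer Erbb3 probe set, at 6.28 in clone 1 and 6.17 in wild type, did not share it. Dusp16, a phosphatase of JNK and p38 kinases, averaged 6.81 ± 0.08 in clone 1 and 7.50 ± 0.11 in wild type (adjusted p = 0.00491), and Rasa4, a GTPase-activating protein of Ras, 6.17 ± 0.15 and 6.85 ± 0.18 (adjusted p = 8.27e-05). Calml4, a calmodulin-like protein of brush borders, averaged 7.63 ± 0.20 in clone 1 and 8.48 ± 0.29 in wild type (adjusted p = 6.96e-05). Mapt, the microtubule protein tau, averaged 7.09 ± 0.25 in clone 1 and 7.92 ± 0.17 in wild type (adjusted p = 0.00491); of its 2 other probe sets one passed at −0.61 and the other differed by −0.02. Ly75, an endocytic receptor, Cd1d1, a lipid antigen-presenting molecule, and Lmo7, a junctional LIM protein, fell by 0.64, 0.63 and 0.61. Ly75 lost its call without clone 1 arrays 2 or 5 or wild-type arrays 1, 2 or 4. Cd1d1 lost it without clone 1 arrays 2, 3 or 5 or wild-type arrays 1, 2 or 4, and Lmo7 without wild-type array 4. With array 2 of unrecombined Hex in the fit Calml4, Rasa4, Ly75, Cd1d1 and Lmo7 lost their calls, and without clone 1 arrays 2 and 5 together Mapt, Ly75, Cd1d1 and Lmo7 did.

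Metabolic and stress lists held a few falls, to be set beside 0.861% of all probe sets called lower. Of 25 measured genes of hypoxia and glycolysis, Bnip3 and Pdk1 fell and 6 were above 0. Bnip3, a mitophagy receptor induced by hypoxia, averaged 6.94 ± 0.09 in clone 1 and 7.49 ± 0.10 in wild type (−0.55, adjusted p = 0.0017), and Pdk1, the kinase that shuts pyruvate dehydrogenase, 9.07 ± 0.15 and 9.58 ± 0.06 (−0.51, adjusted p = 0.000493). Both calls were lost with array 2 of unrecombined Hex in the fit. Mt2, a metallothionein and by the brightest probe sets the only gene to pass of 22 in the p53 and stress list, averaged 11.58 ± 0.11 in clone 1 and 11.97 ± 0.08 in wild type, a call lost with array 2 of unrecombined Hex in the fit. A dimmer probe set of Nqo1, a quinone reductase of the same list, passed at −0.43 (adjusted p = 0.00659), a call lost without clone 1 arrays 2 and 5. Of 27 heat shock and chaperone genes Hspa1a fell (−0.25), and of 23 cholesterol genes Scd2, a fatty acid desaturase, rose (0.40). Hspa1a kept its call only without clone 1 array 4 among the 9 fits that left out an array, and Scd2 lost it without clone 1 arrays 3 or 4 or any 1 wild-type array. None of 37 cell-cycle genes and none of 23 genes of amino acid and purine metabolism passed.

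Markers of other lineages passed in single cases, beside 1.14% of all probe sets. Of 28 genes of primitive streak and mesoderm, 12 of anterior endoderm and 14 of trophoblast, 0 passed. Col4a2, a basement membrane collagen, was the only one of 32 genes of primitive and visceral endoderm to pass, at 7.74 ± 0.05 in clone 1 and 7.53 ± 0.01 in wild type, a call lost in 15 of 19 alternatives. Gbx2 alone passed of 25 neuroectoderm genes, and Tek, the angiopoietin receptor, alone fell of 26 genes of blood and endothelium, at 5.22 ± 0.09 in clone 1 and 5.75 ± 0.10 in wild type (adjusted p = 0.00335). A dimmer probe set of Vwf, the von Willebrand factor of endothelium, also passed at −0.38 (adjusted p = 0.00427), a call lost without clone 1 arrays 2 and 5, while its brighter one differed by 0.02. Of 35 adhesion genes Col4a2 rose and Cd9, a tetraspanin, and Gjb5, a connexin, fell. Cd9 lost its call without clone 1 array 5 or wild-type arrays 1, 2 or 4, and Gjb5 without any 1 of clone 1 arrays 1 to 4 or of wild-type arrays 2 to 4. Of 5 Y-linked genes 0 passed; Eif2s3y averaged 7.52 in clone 1 and 7.62 in wild type.

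Chromosomes 6 and 8 had the highest shares of probe sets called lower. This too was noticed after the values were seen and is a description. Of the 107 falls, 98 had a chromosome in the RefSeq gene table, 17 on chromosome 6 and 16 on chromosome 8. These were 2.6% of 653 probe sets and 2.92% of 548, against 0.906% lower over all 10817 placed probe sets. The chromosome 6 falls included the genes around Rosa26 and also Dppa3, Dusp16, Cd9 and Lrp6. On chromosome 8 the shift was broad: of 172 probe sets with a mean log2 intensity of at least 8, 84.3% were lower in clone 1, with a median of −0.163, while the medians of 19 other chromosomes ran from −0.0602 to 0.0218. The 8 of them called lower included Mt2, Gsr (glutathione reductase), Ckap2 (a spindle protein) and Tnpo2 (a nuclear import receptor). Col4a2, also on chromosome 8, was higher.

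For each array, every such probe set was expressed as its log2 deviation from the mean of the 11 group means. The median deviation on chromosome 8 minus that on the other chromosomes was −0.174, −0.129, −0.200, −0.197 and −0.106 on clone 1 arrays and −0.082, −0.0266, 0.0132 and −0.0546 on wild-type arrays. The groups did not overlap, but the gap between the nearest arrays was small. Nearest to wild type were clone 1 arrays 2 and 5, which also had the lowest β-actin ratios of both groups. Clone 1 with 4-OHT had a mean of −0.177 ± 0.032 (SD, n = 3), unrecombined Hex −0.135 ± 0.023 (n = 3) and clone 2 without 4-OHT 0.109 ± 0.042 (n = 3). Recombined clone 1 without 4-OHT was at −0.049 ± 0.030 (n = 4), above unrecombined clone 1 and near wild type, at −0.0375 ± 0.041 (n = 4). Chromosome copy number was not measured here.

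**Figure D4:**
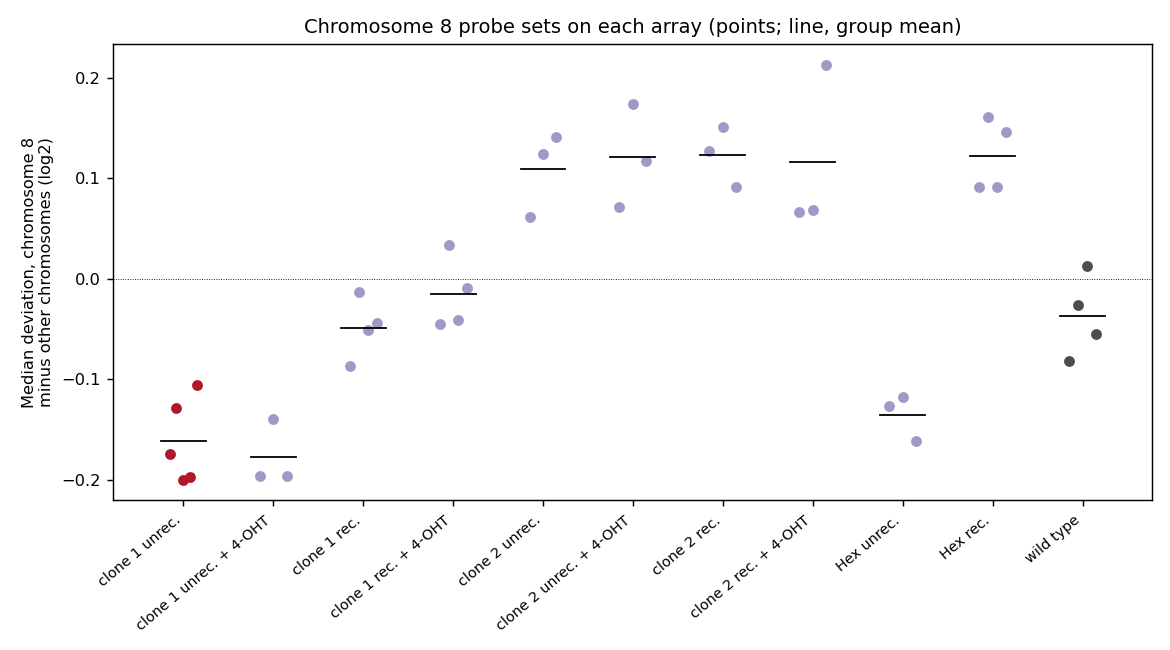
Median deviation of chromosome 8 probe sets from the mean of the 11 group means, minus that of the other chromosomes (y axis, log2), on each of the 39 arrays, by group, with group means as lines; clone 1 is red and wild type grey, and rec. and unrec. stand for recombined and unrecombined. Unrecombined clone 1 lies between −0.2 and −0.106 and wild type between −0.082 and 0.0132, while all clone 2 groups are above 0.

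The differences of clone 1 from wild type were then set beside clone 2, which carries the same construct in the same state. Without 4-OHT the clones differed in 1555 probe sets (12.5%), 827 higher in clone 1 (6.66%) and 728 lower (5.86%). With array 2 of unrecombined Hex in the fit there were 250, and without clone 2 array 3 there were 489. The clone 2 arrays had β-actin 3′/5′ log2 ratios of 1.48, 0.561 and 0.559, and the part of RNA quality in this count was not tested. The first comparison shares the clone 1 arrays with this one. With 4-OHT, on arrays that neither comparison uses, 114 probe sets (0.918%) differed between the clones, 45 higher in clone 1 (0.362%) and 69 lower (0.555%), and 43 with array 2 of unrecombined Hex in the fit.

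Mest and the guanylate-binding genes separated the unrecombined clones both without and with 4-OHT. Mest averaged 8.83 in clone 1 and 6.26 in clone 2 without 4-OHT, and 8.61 and 6.53 with 4-OHT, a difference of 2.08 ± 0.18 on the second set of arrays (SE, adjusted p = 1.3e-09). Gbp2 was higher in clone 1 by 1.67 without and by 1.27 with 4-OHT (adjusted p = 2.8e-11), and Gbp2b by 1.61 and 1.43. Pim2 was higher by 1.11 and 0.94, Calml4 by 1.17 and 0.91, Rhox5 by 1.40 and 1.39, and Dppa3 by 0.67 and 0.57, each past the threshold without and with 4-OHT. Mest and the Gbp genes were thus on the other side of wild type in clone 2, which was at −1.70, −0.997 and −0.94 against wild type for Mest, Gbp2 and Gbp2b. Calml4, Rhox5 and Dppa3 were below wild type in both clones, further in clone 2. Lgals3 was lower in clone 1 than in clone 2 by −0.35 without 4-OHT (adjusted p = 0.12) and by −0.71 with it (adjusted p = 0.03). H2-K1 was higher in clone 1 by 0.40 and 0.42, past the threshold without and with 4-OHT. In recombined cells without 4-OHT, Mest averaged 9.03 in clone 1 and 6.81 in clone 2. Gbp2 there averaged 7.55 and 7.83, Gbp2b 7.29 and 7.41, and Pim2 8.62 and 9.17, clone 1 first. The Gbp genes and Pim2 were thus not higher in clone 1 once recombined, and these recombined differences were not tested.

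Acta2 and Prss23 behaved otherwise. Acta2 was 0.98 higher in clone 1 than in clone 2 without 4-OHT (adjusted p = 1.4e-05) but differed by 0.20 with it, which did not pass. Against wild type it stood at 1.10 in clone 1 and 1.15 in clone 1 with 4-OHT, at 0.12 in clone 2 and 0.95 in clone 2 with 4-OHT. Prss23 stood at 0.67 and 0.67 in clone 1 without and with 4-OHT, and at 0.13 and 0.72 in clone 2, and Pmp22 at 0.76, 0.68, 0.35 and 0.63 in the same order. For these genes the values of clone 1 without 4-OHT lay nearer to those of unrecombined clone 2 with 4-OHT than to those without it. The difference between these responses was not tested here. In recombined clone 2, Acta2 averaged 6.86 without and 6.87 with 4-OHT, Prss23 5.37 and 5.18, and Pmp22 5.70 and 5.55. In recombined clone 1 they averaged 8.32 and 8.05, 6.35 and 5.87, and 6.47 and 6.19. Recombined Hex averaged 7.43, 5.22 and 5.91 for the same genes, and wild type 6.67, 4.85 and 5.42. These recombined differences were not tested. Gt(ROSA)26Sor, Thumpd3, Brk1, Rasa4 and Myb did not pass between the unrecombined clones, with or without 4-OHT. Their differences without 4-OHT were 0.14, 0.34, 0.20, 0.26 and 0.09.

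Against unrecombined Hex, clone 1 differed in 614 probe sets (4.94%), 316 higher (2.54%) and 298 lower (2.4%). Hprt, the purine salvage enzyme commonly used for drug selection in ES cells, was the largest, at 10.54 in clone 1 and 5.59 in unrecombined Hex (4.95 ± 0.10, SE). Of the genes above, Gbp2 (2.08), Gbp2b (2.07), Acta2 (1.80), Pmp22 (1.19) and Prss23 (1.13) were higher in clone 1 and Myb (−0.999), Fgf4 (−0.97) and Lgals3 (−0.87) lower. Mest differed by 0.36 (adjusted p = 0.3), Jagn1 by 0.20 (adjusted p = 0.69) and Erbb3 by 0.32 (adjusted p = 0.17). Myb, Rasa4 and Lgals3, lower in both HexERTVP2 clones, were within 0.1 of wild type in unrecombined Hex, at 0.08, −0.04 and −0.05.

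**Figure D5:**
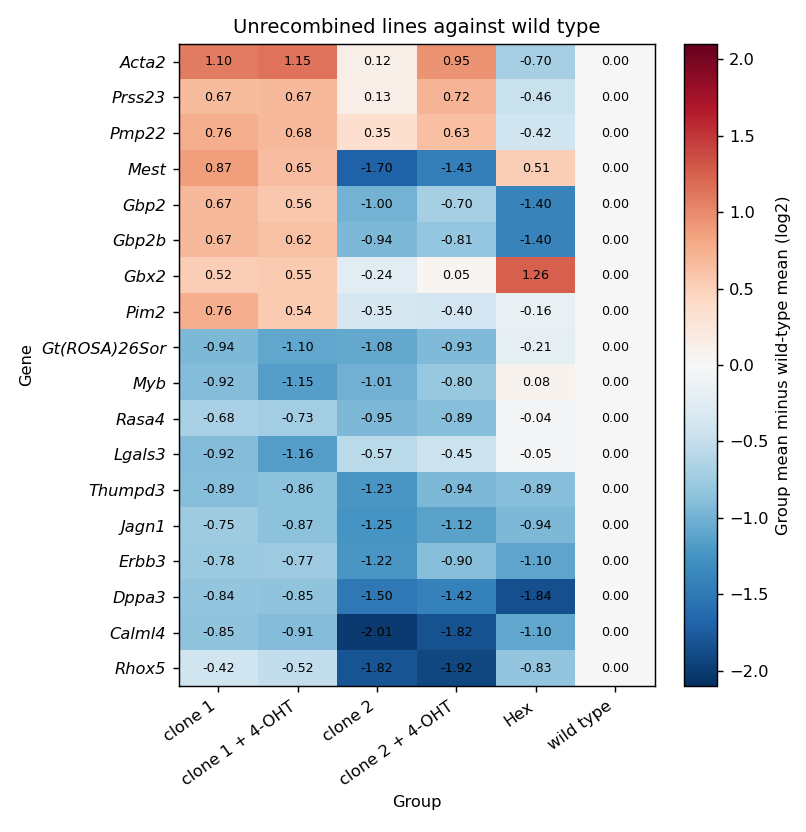
Group mean minus wild-type mean (colour and printed value, log2) of 18 genes in unrecombined lines, with wild type at 0 in the last column; all columns share the 4 wild-type arrays. Acta2 is at 1.10 in clone 1, 0.12 in clone 2 and 0.95 in clone 2 with 4-OHT, Mest is above wild type in clone 1 and below it in clone 2, and Thumpd3 and Jagn1 are below wild type in every targeted column.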

How the data were processed

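RNA of 44 mouse ES cell samples was hybridised to single-channel Affymetrix MG-U74Av2 arrays. The deposited table holds 1 linear intensity per probe set and array; per the submitters' processing notes the authors used RMA (background correction, quantile normalisation and probe summary), with no settings given. Intensities were converted to log2. Of 12488 probe sets, 66 controls were left out. The platform annotation gave 1 symbol to 10833 probe sets, several to 396 and none to 1193, and only the first kind is named. Of these, 10817 matched the RefSeq gene table of GRCm38.p6, used for names, chromosomes and gene order. The files name no build.

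Arrays were grouped by their labels, and 4 arrays with contradictory titles were not used. The other 40 fell into 11 groups, and 39 arrays entered 1 model (lmFit and eBayes of limma 3.58.1 in R 4.3.3), two-sided, Benjamini-Hochberg over 12422 probe sets, threshold 0.05. No 2 of the 9 arrays were copies (highest correlation 0.997). Same-numbered arrays of the groups deviated together for some numbers only (correlations 0.31, −0.089, −0.375 and 0.617 for arrays 1 to 4). Only wild-type array 4 matched its same-numbered clone 1 array best, so whether the numbers pair the arrays is unsettled.

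Genes named were up to 15 rises and falls with 1 symbol, past the threshold and without overlap, and up to 4 members of each of 28 gene lists, or 2 as values where none passed; the text gives a selection, and genes chosen after their values were seen are the neighbours of Rosa26, the ES cell markers, second probe sets of list genes that passed, and the genes of chromosome 8. A list gene was represented by its brightest probe set. The comparison, the lists and the rules were chosen with earlier results of these data known. Data were simulated for the clone 1 comparison with independent noise of the spread found on these arrays. There the fit passed a check that most added changes of log2 1 were called. No minimum was set for smaller added changes, nearer to the sizes reported here. Alternatives are given in the closing section; the fit without clone 1 arrays 2 and 5 and the chromosome summaries were chosen after seeing the data. Tables and figures used Python 3.11.15 with pandas 2.3.3 and matplotlib 3.10.9.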

Additional observations from a re-analysis of the deposited data

Results flagged for a closer look

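Of 33 genes with the largest changes or named throughout, 18 differed between clone 1 and clone 2 without 4-OHT in the direct test, beside 12.5% of all probe sets (1555). Most of the 33 were chosen for large values on the same clone 1 arrays, so the 18 are a description. The 1555 fell to 250 with array 2 of unrecombined Hex in the fit and to 215 with only the 2 groups fitted. Genes higher than wild type in clone 1 stood above clone 2 by 2.58 (Mest), 1.67 (Gbp2), 1.61 (Gbp2b), 1.11 (Pim2), 0.98 (Acta2), 0.76 (Gbx2), 0.72 (Ssbp2), 0.55 (Magel2), 0.53 (Prss23), 0.46 (Nkx6-2), 0.41 (Pmp22) and 0.34 (Wls) on the log2 scale. Genes lower than wild type in clone 1 also stood above clone 2, where they were lower still, by 1.17 (Calml4), 0.67 (Dppa3), 0.59 (Cd1d1), 0.50 (Jagn1), 0.45 (Lmo7) and 0.43 (Erbb3). The clone 2 arrays numbered 3. On the separate arrays with 4-OHT, the differences of Mest, Gbp2, Gbp2b, Pim2, Calml4 and Dppa3 also passed, and those of the other 12 did not.

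In Dusp16, wild-type array 4 read 7.66 while the other wild-type arrays lay between 7.43 and 7.45, a gap of 0.895 of the group's range. All clone 1 arrays were below all of these. It was 1 of 66 groups examined in this way, and chance marks about 1 in 20.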

How the results depend on the processing

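No named gene that passed changed direction under any alternative run. The balance of calls did turn in 2 comparisons. For clone 1 against clone 2 without 4-OHT it was 827 higher and 728 lower, but 1465 and 1752 with the β-actin covariate and 783 and 1254 without clone 2 array 2. For clone 1 against unrecombined Hex it was 316 higher and 298 lower, but 268 and 349 with median centring, 581 and 608 with the covariate, 286 and 304 without clone 1 array 1, and 205 and 222 without array 4 of unrecombined Hex. For clone 1 against wild type, the count of 142 was 37 with all 40 arrays, 298 with array weights, 288 with the β-actin covariate, 73 at an adjusted p of 0.01, 69 without clone 1 arrays 2 and 5, and 84 to 144 with single arrays left out. With only these 2 groups fitted it was 120 (29 higher, 91 lower), of which 81 were among the 142. For clone 1 against clone 2 without 4-OHT, the count of 1555 was 250, 858, 3217 and 491 under the first 4 of these settings, 215 with only the 2 groups fitted, and 489 to 2037 with single arrays left out. With 4-OHT, the count of 114 was 43, 358, 252 and 70, 18 with only the 2 groups, and 66 to 101. Against unrecombined Hex, the count of 614 was 1627 with weights, 1189 with the covariate, 374 at 0.01, and 371 to 607. The cause of these shifts was not tested. Quantile normalisation, median centring, a minimum mean log2 of 6 and another variance moderation (trend and robust) kept all 4 counts within 1.5 times. The replicate number as a block, whose pairing of these arrays is unsettled, gave 118 calls (34 higher, 84 lower), 1945, 147 and 646 in the same order of comparisons. With all 40 arrays, 35 of the 73 named genes lost their call. The 38 unchanged include genes that had no call to lose, such as Hhex, Tle4, Nodal and Lefty1. Calls were lost by 21 genes without clone 1 arrays 2 and 5, by 15 with only the 2 groups fitted, and by 6 to 17 with a single array left out. The chromosome 8 median of −0.163 was −0.0576 over all its probe sets, dim ones included. Dim probe sets limit Gt(ROSA)26Sor, Myb, Prss23, Tek and Inhbb, whose group means were under the array median of 6.76. The same held for others, among them Lgals3, Pmp22, Wls, Magel2, Nkx6-2, Cd1d1 and Fst.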

Other observations

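Like Thumpd3 and Jagn1, some genes outside the lists were lower on all 35 targeted arrays than on any of the 4 wild-type arrays. Of these, Tiam1, an exchange factor that activates Rac, fell by 0.44 in clone 1 (adjusted p = 0.00255 by limma), Osbpl1a, an oxysterol-binding protein, by 0.49 (adjusted p = 0.00842), and Tmem50b, a membrane protein, by 0.30 (adjusted p = 0.00918). A second Mapt probe set (−0.61, adjusted p = 0.000101) had the same pattern. Osbpl1a lost its call with array 2 of unrecombined Hex in the fit, without clone 1 arrays 2 and 5, and without wild-type array 1, and Tmem50b without wild-type array 2 and with only the 2 groups fitted. Others with the pattern did not pass in clone 1: Rad50, a subunit of the DNA break sensor MRN, differed by −0.24 (adjusted p = 0.12), Ptgr1, a prostaglandin reductase, by −0.52 (adjusted p = 0.472), Hibadh by −0.43 (adjusted p = 0.0745) and Pfkp by −0.62 (adjusted p = 0.225). These genes were chosen after their values were seen, and all targeted lines share the same wild-type arrays.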
